A study of Mus musculus with 8 samples.

Results

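A cluster of microRNA (miRNA) genes lies in the introns of Clcn5 on the mouse X chromosome, and its miRNAs were followed in kidneys after ureteral obstruction. The members were chosen by name: mmu-miR-532-5p, mmu-miR-532-3p, mmu-miR-188-5p, mmu-miR-362-5p, mmu-miR-362-3p, mmu-miR-501-5p, mmu-miR-501-3p, mmu-miR-500-3p and mmu-miR-660-5p, written below without the prefix for mouse. Of these 9 miRNAs, 8 were on the array, with 26 of its 4415 probes and among its 1881 mouse miRNAs. miR-660-5p was not on the array. The UUO group was kidney tissue of C57BL/6 males, 8 weeks old, collected 7 days after a unilateral ureteral obstruction (UUO), the blocking of 1 ureter, which leads to tubular injury, inflammation and fibrosis of that kidney. The Sham group was kidney tissue of the same strain, sex and age, 7 days after sham surgery. No genetic change or drug is given in the labels for either group. Each group had 4 samples, UUO 1 to 4 and Sham 1, 2, 3 and 8, with 1 single-colour array per sample. The labels do not say that each sample came from its own mouse, so the p-values measure the spread between samples, which may be partly technical.

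miRNAs are short RNAs cut from hairpin precursors, and each arm of a hairpin, 5p or 3p, can give a mature miRNA that lowers the output of mRNAs pairing with its seed. miRNA genes inside an intron, on the strand of the host gene, are often made from the transcript of that host, although the amount of each mature arm also depends on processing and on its stability. Clcn5 codes for ClC-5, a chloride and proton exchanger of endosomes in the proximal tubule, and its loss in humans causes Dent disease, a disorder of protein reuptake by that tubule. Clcn5 mRNA was not measured here.

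In RefSeq (GRCm38.p6), 5 hairpins of the cluster lay inside Clcn5, and all 5 ran on the minus strand, as Clcn5 does. In the direction of transcription they were Mir532 (chrX:7248402-7248497), Mir188 (chrX:7247989-7248056), Mir362 (chrX:7241982-7242046), Mir501 (chrX:7241243-7241351) and Mir500 (chrX:7237683-7237774), within 10815 bases. Mir188 began 345 bases after Mir532, and a gap of 5942 bases separated this pair from Mir362. Mir501 followed Mir362 after 630 bases, and Mir500 followed Mir501 after 3468 bases. The array files place probes on the older build mm9, so these positions are given for the genes and not for the probes.

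Mature sequences were matched by name for 7 of the 9 members. They are shown to make the shared and different seeds visible, 5′ to 3′, with the seed (bases 2 to 8) in capitals.
miR-532-3p: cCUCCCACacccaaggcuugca
miR-188-5p: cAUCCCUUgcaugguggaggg
miR-362-5p: aAUCCUUGgaaccuaggugugaau
miR-362-3p: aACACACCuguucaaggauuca
miR-501-5p: aAUCCUUUgucccugggugaaa
miR-501-3p: aAUGCACCcgggcaaggauuug
miR-500-3p: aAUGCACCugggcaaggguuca

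miR-500-3p and miR-501-3p shared a seed and 18 of 22 bases. Counted from the 5′ end, with the base of miR-500-3p first, they differed by U9C, G18A, C21U and A22G. miR-362-3p matched miR-500-3p at 17 of 22 positions, with a different seed. miR-362-5p shared its seed with miR-500-5p, the other arm of Mir500, while no other seed of a member was found in another member. The Mir362 hairpin is shown because its arms are the only pair besides the miR-532 arms that were both measured. Its 5p arm stands first and its 3p arm second, both in capitals.
Mir362: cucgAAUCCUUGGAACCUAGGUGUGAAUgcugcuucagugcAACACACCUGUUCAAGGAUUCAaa

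Each array had 56430 spots. Between 740 and 800 probes were detected on the UUO arrays, and between 720 and 754 on the Sham arrays. The intensity used for scaling, the 75th percentile of the 623 probes that every array detected, was 435 to 482 in UUO and 394 to 413 in Sham. Signals are given below as percent of this percentile, and changes as log2 fold change of UUO over Sham, each with the limma fit's standard error (SE). The UUO arrays were all in 1 row of the slide and the Sham arrays in the other, so row and group cannot be told apart. A miRNA was tested if its probe was detected on at least 4 of the 8 arrays, which 408 miRNAs were, and was called at a Benjamini-Hochberg adjusted p under 0.05 over these 408.

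With that scaling, 4 of the 6 measurable cluster miRNAs were higher in UUO than in Sham kidneys, by 1.16- to 1.46-fold: miR-532-5p, miR-532-3p, miR-188-5p and miR-362-5p. miR-362-3p and miR-500-3p were not called, and the signals of both arms of Mir501 were not well above background on any array. No member was called lower. Over all 408 tested miRNAs, the share called higher was 39.7% and the share called lower 27.7%, and with only 6 members the share of 4 in 6 is not far from that background. The median log2 change was 0.27 over the 6 members and 0.06 over all 408. These calls depend on the processing, as described further on.

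**Figure D1:**
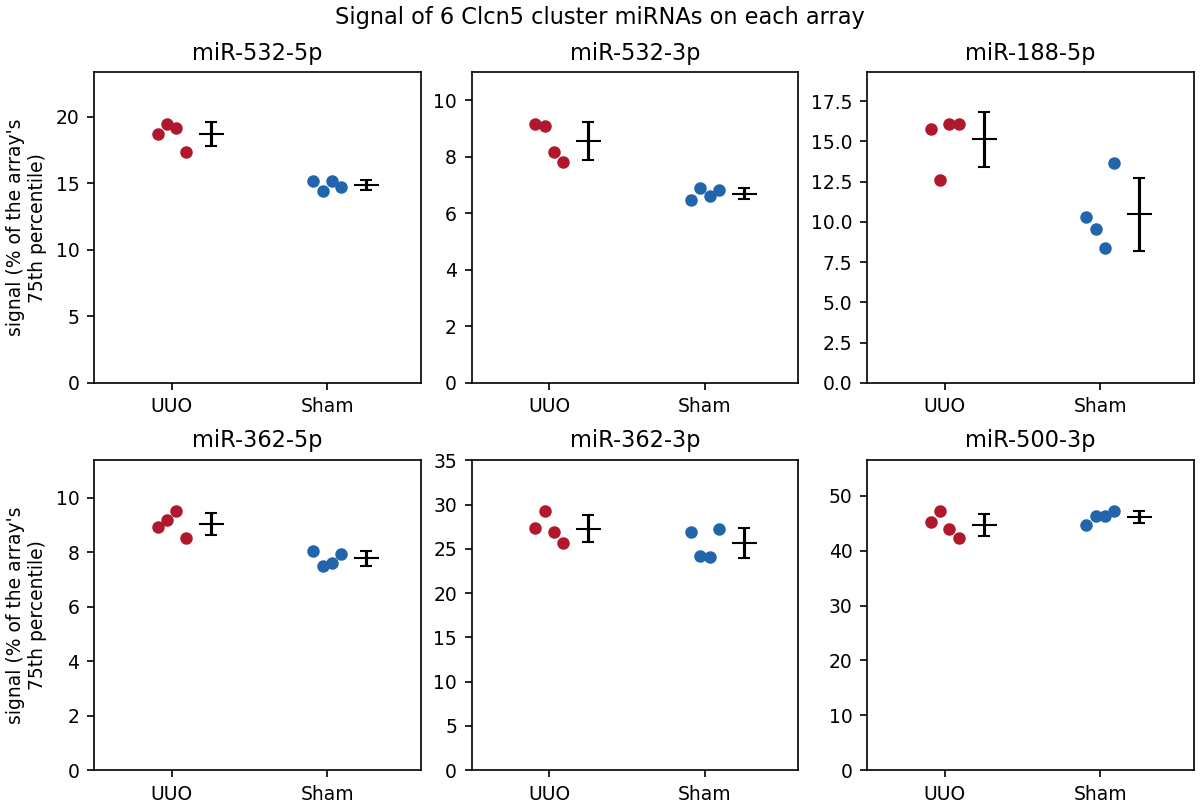
Signal of the 6 measurable members on each array, in percent of the array's 75th percentile, with UUO (red) left of Sham (blue). Each point is 1 array and the black bar with whiskers is the group mean ± SD (n = 4); all UUO points lie above all Sham points for miR-532-5p, miR-532-3p and miR-362-5p, directions that turned for miR-532-5p with total intensities per miRNA and for miR-362-5p in 4 alternatives.

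The hairpin farthest upstream, Mir532, gave 2 measurable arms. miR-532-5p, which has been described in human cancer cells as a repressor of RUNX3, had signals of 18.7, 19.4, 19.1 and 17.4% on UUO arrays 1 to 4, against 15.2, 14.4, 15.2 and 14.8% on Sham arrays 1, 2, 3 and 8. Every UUO array was above every Sham array, as for 35.0% of all 408 miRNAs. The change was 0.33 ± 0.05 (SE), or 1.25-fold (95% interval 1.16 to 1.36, n = 4 per group, limma adjusted p = 0.000584). The call was lost with quantile normalization (0.047, limma adjusted p = 0.59), the deposited ratio table (0.018, 0.828) and the total intensity per miRNA (−0.022, 0.788). Only with the total intensity did the sign turn. The other probe of miR-532-5p, 1 base shorter, gave 0.30 ± 0.05.

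On the 3p arm of the hairpin, miR-532-3p had signals of 9.16, 9.09, 8.16 and 7.81% on UUO arrays 1 to 4, against 6.47, 6.88, 6.61 and 6.82% on Sham arrays 1, 2, 3 and 8. The groups were again apart, with a change of 0.35 ± 0.06 (SE), or 1.27-fold (95% interval 1.15 to 1.41, limma adjusted p = 0.00143), which was above 0 under all 23 alternatives run. The call was lost in 4 of them: quantile normalization (0.13, limma adjusted p = 0.228), normexp correction (0.019, 0.694), total intensities (0.069, 0.42) and the ratio table (0.11, 0.32). Its 14-base probe was detected on 4 UUO arrays and 0 Sham arrays and lay at the floor of the scale in Sham, so its fitted change of 0.06 is no measure of size.

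On the same array, the 3p arm minus the 5p arm averaged −1.13 ± 0.08 in UUO and −1.15 ± 0.07 in Sham (log2, SD, n = 4 each). The change of the 2 arms thus differed by 0.02, within the spread between arrays (exact permutation test over 70 splits, 2-sided, p = 0.686), while with normexp correction it was −0.093 (exact permutation p = 0.0286). The UUO and Sham values of this difference overlapped.

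miR-188-5p, known in mice from bone marrow stromal cells, where it favours fat over bone formation, showed both the greatest change and the greatest spread of the members. Its signals were 15.8, 12.6, 16.1 and 16.1% on UUO arrays 1 to 4, against 10.3, 9.57, 8.40 and 13.6% on Sham arrays 1, 2, 3 and 8. UUO 2 was the low array of its group and Sham 8 the high one of the other, and Sham 8 was above UUO 2. The change was 0.55 ± 0.15 (SE), or 1.46-fold (95% interval 1.14 to 1.86, limma adjusted p = 0.0125). It ran from 0.45 to 0.68 when 1 array was left out at a time, with adjusted p between 0.00172 and 0.0378 (limma). The call was lost with quantile normalization (0.26, limma adjusted p = 0.103), total intensities (0.32, 0.137), the ratio table (0.36, 0.0837) and no filter on dim miRNAs (adjusted p = 0.137).

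All 4 probes of miR-188-5p were called higher, with log2 changes of 0.55 to 0.73. They are only 10 to 13 bases long and pair with the 3′ end of the miRNA. The nearest other mature miRNA in RefSeq, miR-7020-5p, differed from the 13-base probe's target at 2 positions and from that of the 11-base probe at 1. Whether other RNAs add to their signal was not tested. The other arm, miR-188-3p, had no probe well above background on the 8 arrays. The scanner software's own detection call was present for it on 0 UUO arrays and on 3 Sham arrays. Its 14-base probe read −1.66 to 2.66 in UUO and 4.20 to 12.3 in Sham, and its 15- and 16-base probes did not overlap between groups either. The longest probe, of 17 bases, did overlap, reading 4.41 to 5.91 in UUO and 4.90 to 11.5 in Sham.

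Downstream, Mir362 gave 2 measurable arms with smaller changes. miR-362-5p, reported in human cancer cells to act on CYLD, had signals of 8.92, 9.19, 9.51 and 8.54% on UUO arrays 1 to 4, against 8.06, 7.51, 7.60 and 7.96% on Sham arrays 1, 2, 3 and 8. The groups did not overlap, and the change was 0.22 ± 0.05 (SE), or 1.16-fold (95% interval 1.07 to 1.26, limma adjusted p = 0.0055). Its sign turned in 4 alternatives, with values of −0.084 to −0.018: the deposited ratio table, the total intensity, normexp correction and quantile normalization.

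The 17-base probe of miR-362-5p gave 0.31 ± 0.06 beside the 0.22 of the 18-base probe. The shorter probes, of 15 and 16 bases, were not detected on any array. Both detected probes were thus called higher.

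miR-362-3p had signals of 27.4, 29.2, 26.9 and 25.6% on UUO arrays 1 to 4, against 26.9, 24.2, 24.1 and 27.3% on Sham arrays 1, 2, 3 and 8. The groups overlapped, with Sham 1 and Sham 8 among the UUO values. The change of 0.09 ± 0.06 (SE, limma adjusted p = 0.249) had a 95% interval of −0.06 to 0.24 and was not called. On the same array, the 3p arm minus the 5p arm averaged 1.59 ± 0.07 in UUO and 1.72 ± 0.05 in Sham (log2, SD, n = 4 each), a difference of −0.13 that did not pass (exact permutation test, 2-sided, p = 0.0571, adjusted p = 0.114 over both pairs of arms). Without UUO 2 that difference was −0.15 (exact permutation p = 0.0286), while with normexp correction its sign turned (0.033, exact permutation p = 0.286).

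miR-500-3p came from the hairpin farthest downstream. Its signals were 45.3, 47.1, 43.9 and 42.3% on UUO arrays 1 to 4, against 44.7, 46.3, 46.4 and 47.2% on Sham arrays 1, 2, 3 and 8. The groups overlapped, UUO 3 and UUO 4 being below all Sham arrays. The change of −0.05 ± 0.05 (SE, 95% interval −0.16 to 0.06, limma adjusted p = 0.42) was not called.

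The 2 probes of miR-500-3p did not give the same call. The 15-base probe gave −0.17 ± 0.06 (SE, limma adjusted p = 0.0246 over 771 probes) and was called lower, while the 16-base probe is the one given above. Of the 26 member probes, 14 were tested, and of these 9 were called higher, 1 lower and 4 not at all. Of all 771 tested probes, 41.1% were called higher. Probes of 1 miRNA cover overlapping bases and are not independent, and 4 of the 9 belonged to miR-188-5p.

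miR-501-3p, described in mice in activated muscle progenitors, and miR-501-5p had 8 probes in all, none of them well above background on any array. Background-subtracted intensities of these probes ran from −2.93 to 11.3 in UUO and from −3.41 to 5.61 in Sham. They are therefore reported as not well above background, with no fold change. The same was found for miR-500-5p, the other arm of Mir500.

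**Figure D2:**
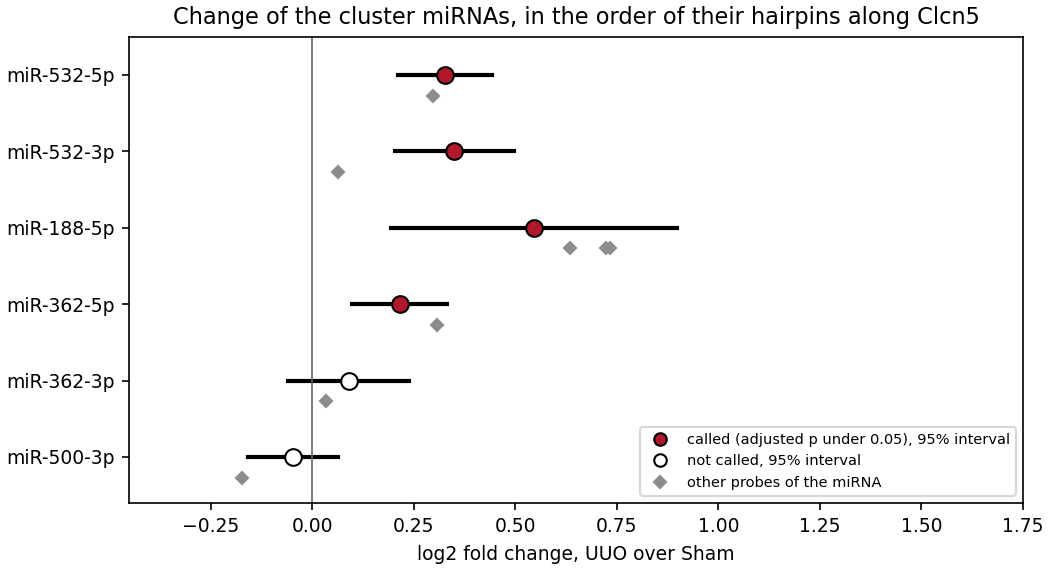
Log2 fold change, UUO over Sham, of the 6 measurable members, from the hairpin farthest upstream at the top to the one farthest downstream at the bottom. Circles with lines are the change with its 95% interval (n = 4 per group; filled where called), and grey diamonds are other tested probes of the same miRNA; the values go from 0.55 for miR-188-5p to −0.05 for miR-500-3p, and the signs of miR-532-5p, both miR-362 arms and miR-500-3p turn under some alternatives.

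Because a difference between 2 members on 1 array is free of any factor common to that array, each member was set against miR-532-5p on the same array. The change of miR-500-3p was lower than that of miR-532-5p by 0.37 (log2). The difference of the 2 signals averaged 1.26 ± 0.04 in UUO and 1.63 ± 0.06 in Sham (SD, n = 4 each), and every UUO array was below every Sham array. miR-362-3p differed from miR-532-5p by −0.24, with means of 0.55 ± 0.04 in UUO and 0.78 ± 0.10 in Sham, again without overlap.

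miR-362-5p differed from miR-532-5p by −0.11, with means of −1.05 ± 0.03 in UUO and −0.93 ± 0.05 in Sham. For each of these 3 miRNAs the exact permutation test gave p = 0.0286 (2-sided), the smallest that 4 against 4 arrays allow, and an adjusted p of 0.0476 over the 5 comparisons. The median change of all tested miRNAs, 0.06, was itself below the 0.33 of miR-532-5p. How many miRNAs outside the cluster also lay below miR-532-5p without overlap was not counted. Whether such a separation is particular to these members was therefore not tested. The difference of miR-362-5p missed the threshold with quantile normalization (−0.066, exact permutation p = 0.0571) and with the mean of the detected probes (−0.050, exact permutation p = 0.114). Without any 1 of the UUO arrays, the differences of miR-362-3p and miR-362-5p were −0.25 to −0.22 and −0.12 to −0.10, each at an exact permutation p of 0.0571, while that of miR-500-3p passed without any 1 array. miR-188-5p differed from miR-532-5p by 0.22, with means of −0.31 ± 0.22 in UUO and −0.53 ± 0.31 in Sham, which overlapped (exact permutation p = 0.371, adjusted p = 0.464).

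Under the 19 alternatives run for these differences, miR-500-3p differed from miR-532-5p by −0.54 to −0.17 and miR-362-3p by −0.36 to −0.098 (log2), negative in each of them. Those alternatives that only rescale whole arrays cannot alter such a difference, and other floors left both unchanged, so neither kind is a check. The deposited ratio table and the total intensity differ by 1 factor per array and gave the same values as each other. The smallest differences came with normexp correction, which adds an offset of 50 to signals that here had group means of 27.2 to 207. Of the members set against miR-532-5p, miR-500-3p differed the most, and Mir532 and Mir500 lie at the 2 ends of the stretch. miR-188-5p, from the hairpin next to Mir532, had a greater change than miR-532-5p (0.55 against 0.33). A trend along the stretch was not tested.

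**Figure D3:**
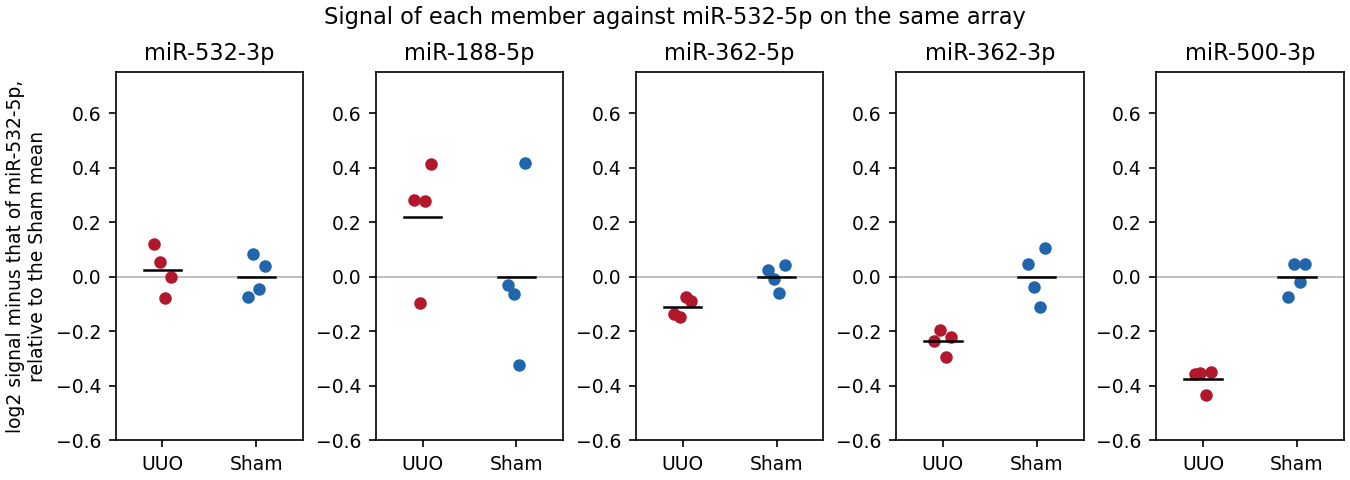
Log2 signal of each of 5 members minus that of miR-532-5p on the same array, set to 0 at the Sham mean, with UUO (red) left of Sham (blue). miRNAs outside the cluster were not set against miR-532-5p. Points are arrays and bars are means (n = 4); the UUO means lie 0.11, 0.24 and 0.37 below Sham for miR-362-5p, miR-362-3p and miR-500-3p, with no overlap, while miR-532-3p and miR-188-5p overlap.

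The level of the whole cluster against other miRNAs was less certain. The baseline here was the median signal on each array, which is not the median change of 0.06 given above. Relative to the median of the 408 miRNAs on each array, the change was 0.35 for miR-188-5p, 0.16 for miR-532-3p, 0.13 for miR-532-5p, 0.02 for miR-362-5p, −0.10 for miR-362-3p and −0.24 for miR-500-3p (log2, UUO minus Sham). None passed the exact permutation test, with adjusted p between 0.171 and 0.686 over the 6 members. Against the 335 miRNAs detected on all 8 arrays, the same values ran from −0.39 for miR-500-3p to 0.21 for miR-188-5p, and that of miR-532-5p was −0.014.

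The processing moved the changes of the members and of all miRNAs. Of all calls over the 408 miRNAs, 58.9% were higher in UUO with the scaling used here, against 69.8% with the percentile over all mouse probes, 73.4% without scaling and 74.7% with the dmr control features, a set of control spots on the array. The share was 43.5% after quantile normalization and 46.4% after normexp correction (407 miRNAs tested). It was 33.4% for total intensities and 36.3% for the deposited ratio table, which also change the probe summary and the set tested (499 miRNAs). The median change of all miRNAs moved with it, being 0.28 with the dmr features and −0.23 with the total intensity (log2).

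Among the members, 6 of 6 were higher without scaling and with the dmr features, and 0 of 6 with the deposited ratio table, quantile normalization or the total intensity. Of all tested miRNAs, 52% and 52.2% were called higher in the first pair of settings, and 23.6%, 30.1% and 21.8% in the other three in the order given. Under these last 3, miR-362-3p (−0.31 to −0.23) and miR-500-3p (−0.49 to −0.39) were called lower. The shares of all tested miRNAs called lower there were 41.5%, 39.2% and 43.5%, in the same order. miR-188-5p kept a positive change in all of these settings, between 0.18 and 0.77 over every alternative run. miR-500-3p had a positive change with the percentile over all mouse probes, without scaling and with the dmr features, and a negative one in the others.

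**Figure D4:**
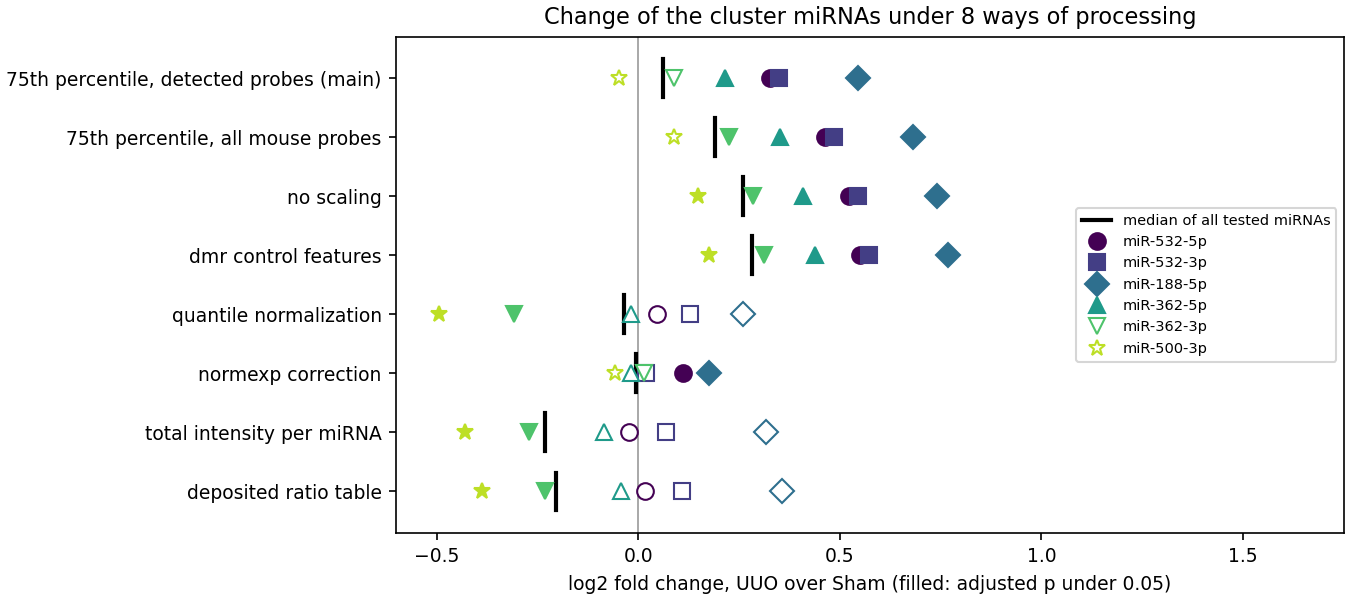
Log2 fold change, UUO over Sham, of the 6 members under 8 ways of processing the same arrays, with filled symbols where the limma adjusted p was under 0.05. The black bar is the median of all tested miRNAs. Members keep nearly the same order, from miR-188-5p at the right to miR-500-3p at the left, while the values as a whole shift. Both percentile scalings, no scaling and the dmr features differ only by a factor per array, so the order of members in them is the same by construction. The same holds for total intensities and the ratio table. miR-188-5p and miR-532-3p stay above 0 in all 8 and the other 4 change sign.

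Over the 8 arrays, the mean centred signal of the 6 members was between 0.06 and 0.15 in UUO and between −0.19 and −0.03 in Sham (log2). The tested miRNAs outside the cluster closest to this profile, out of 402, were miR-195a-5p, miR-181c-5p, miR-3058-3p, miR-340-3p and miR-125a-5p, with root-mean-square differences of 0.05 to 0.06 log2 where the median was 0.28. miR-3058-3p was at the floor of the scale on all Sham arrays. Of the members, miR-362-5p was closest to the mean of the other 5 (0.05) and miR-188-5p farthest from it (0.28).

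The cluster lies on the X chromosome, to which the array files map all placed probes of 20 further tested miRNAs (mm9). Of these, 6 were higher, 5 lower and 9 not called, with a median log2 change of 0.02. Among the brightest, miR-20b-5p changed by 0.57 ± 0.05 and miR-652-5p by −0.51 ± 0.06 (SE, limma adjusted p = 3.71e-05 and 0.000129), while miR-322-5p (−0.04 ± 0.06) and miR-221-3p (−0.07 ± 0.05) were not called. The miRNAs outside the cluster that share a seed with a member, miR-329-3p with miR-362-3p and miR-7061-3p with miR-188-5p, were not detected on any array.

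The arrays measured whole tissue, so fewer cells of a type and less RNA per cell cannot be told apart. Of 5 tested miRNAs typical of kidney tubules, the cells in which Clcn5 is best known, 3 were lower, 0 higher and 2 not called, with a median log2 change of −0.75, and their summed signal was 24.5 to 28.6 times the 75th percentile in UUO, against 40.9 to 43.6 times in Sham. miR-192-5p and miR-30a-5p of that list changed by −1.14 ± 0.11 and −0.75 ± 0.07 (SE, limma adjusted p = 4.38e-05 and 3.71e-05). The 2 not called were miR-10a-5p (0.0008 ± 0.09, limma adjusted p = 0.995) and miR-204-5p (0.10 ± 0.05, limma adjusted p = 0.0906). The changes of the members lay between −0.05 and 0.55 beside these.

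Of the leukocyte miRNAs, 6 of 6 were higher, with a summed signal of 7.08 to 8.06 in UUO and 1.68 to 1.91 in Sham. Of the fibroblast and smooth muscle miRNAs, 4 of 5 were higher, with 13.5 to 15.5 in UUO and 5.38 to 5.99 in Sham. Of 3 red blood cell miRNAs 2 were lower, of 2 endothelial ones 1 was lower and of 2 striated muscle ones 0 were called. The part of these cell types in the changes of the cluster was not tested.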

How the data were processed

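Kidney RNA of 4 UUO and 4 Sham samples was hybridised to single-colour Agilent miRNA arrays, all 8 on 1 slide. Agilent Feature Extraction 10.7.3.1 gave the deposited spot intensities, per the file headers, after subtracting a spatial background surface and with no normalization between arrays. The deposited ratio table held, for each miRNA, the software's total intensity scaled by 1 factor for each array and divided by the median over arrays. The sources used here do not give the basis of that factor. The table's column medians were 0.809, 0.903, 0.867 and 0.766 in UUO 1 to 4 and 1.11, 1.26, 1.28 and 1.11 in Sham 1, 2, 3 and 8.

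Control spots and outlier spots (2.64 to 2.95% per array) were dropped before averaging spots by probe. Detection of a probe required over 50% of its spots to be well above background, and no spot was saturated. Intensities were divided by the array's 75th percentile of the 623 probes that every array detected, raised to a floor of 3.38% of it (log2 −4.89) and put on the log2 scale. Each miRNA was represented by its brightest probe. limma 3.58.1 in R 4.3.3 was fitted with group as the only term, and the fit was checked on simulated data. Differences between members on the same array were tested with exact permutations of the samples. The number of arrays limits the precision.

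The members, the lists and the tests were chosen with earlier results of these data known. Named were all members, their other arms, up to 3 brightest tested miRNAs of each cell type list, up to 6 from the X chromosome and the 5 with the profile closest to the cluster, of which only some have values in the text. Mature and hairpin sequences are from RefSeq (GRCm38.p6), in which 1608 of 1881 array miRNAs were matched by name. Alternatives were other scalings, background correction, probe summaries, filters and floors, blocks, and leaving out 1 array at a time.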

Additional observations from a re-analysis of the deposited data

Results flagged for a closer look

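Within the UUO group, miR-188-5p had 1 array far from the others. UUO 2 read 12.6% of the 75th percentile, while the other UUO arrays read 15.8 to 16.1%. On the log2 scale, the gap to its neighbour was 0.922 of the range of the group, above Dixon's critical value for 4 samples. Of 12 groups of member values checked, this was the 1 found, and chance alone marks about 1 in 20 such groups. Its cause was not tested.

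miR-501-3p, left out of the comparison as not well above background, carried the scanner software's own detection call on 3 UUO arrays and 0 Sham arrays. Its longest probe read 11.3, 9.09, 9.69 and 7.93 on UUO arrays 1 to 4, against 5.61, 5.30, 4.46 and 4.69 on Sham arrays 1, 2, 3 and 8. The total intensities were 1.505, 1.23 and 1.30 on UUO 1 to 3 and at the software's lower value of 0.1 on UUO 4 and on all Sham arrays. miR-188-3p, also not well above background, carried that call on 0 UUO and 3 Sham arrays, with totals of 0.1 on all UUO arrays and of 6.05, 6.10 and 6.28 on Sham 2, 3 and 8.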

How the results depend on the processing

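The number of members called higher in UUO was 4, and it was 3 (no filter) to 6 under the 23 alternatives, apart from 2 with normexp correction and 0 with the deposited ratio table, total intensities and quantile normalization. Under those last 3, 2 members were called lower, beside 41.5%, 43.5% and 39.2% of all tested miRNAs. In the other alternatives 0 members were called lower. Changes whose sign turned were miR-532-5p with total intensities (−0.022), and miR-362-3p with the ratio table (−0.23), total intensities (−0.27) and quantile normalization (−0.31). miR-362-5p turned with the ratio table (−0.043), total intensities (−0.084), normexp (−0.0183) and quantile normalization (−0.0188), and miR-500-3p with the percentile over all mouse probes (0.089), no scaling (0.15) and the dmr features (0.18). The cause was not tested. The difference between the miR-532 arms was −0.093 with normexp (exact permutation p = 0.0286) and −0.10 with the mean of the detected probes (exact permutation p = 0.0571). That mean takes in the 14-base probe of miR-532-3p, which lay at the floor in Sham. The difference between the miR-362 arms passed the exact permutation test with the ratio table and total intensities (−0.19 each). It also passed with the mean of the detected probes (−0.20), with quantile normalization (−0.29) and without UUO 2 (−0.15). Leaving out 1 array it ranged from −0.15 to −0.094, and with normexp its sign turned (0.033, exact permutation p = 0.286). miR-362-5p against miR-532-5p no longer passed with quantile normalization (−0.066) and the mean of the detected probes (−0.050). Without any 1 of the UUO arrays, miR-362-3p and miR-362-5p against miR-532-5p had an exact permutation p of 0.0571, and leaving out 1 array of either group they ranged from −0.27 to −0.20 and from −0.13 to −0.097. Leaving out 1 array gave 4 higher and 0 lower members each time. Without a filter on dim miRNAs, miR-188-5p was not called (limma adjusted p = 0.137 over 1881).

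Samples with the same number did not deviate together (r of −0.000808, 0.124 and −0.303 for numbers 1 to 3), so the numbers were not taken as pairs. With the replicate number as a block, 4 members were again higher and 0 lower. With the slide column as a block the counts were again 4 and 0. Within the 4 slide columns, UUO minus Sham was 0.24 to 0.43 for miR-532-5p, 0.20 to 0.50 for miR-532-3p, 0.24 to 0.94 for miR-188-5p and 0.10 to 0.32 for miR-362-5p. For the members not called it had both signs, from −0.091 to 0.27 for miR-362-3p and from −0.16 to 0.028 for miR-500-3p. Signals near the floor limit the dimmest probes of miR-532-3p.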
